A study of Homo sapiens
Mus musculus with 17 samples.

Results

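Tumours treated with alpelisib plus nintedanib were compared with tumours treated with alpelisib alone, which asks what nintedanib adds when the alpha isoform of phosphoinositide 3-kinase (PI3K) is already inhibited. The comparison uses 8 of the 17 libraries of the series, chosen by their treatment labels: 4 combination libraries and 4 alpelisib libraries. Each was read in 2 tables, of human genes (largely tumour cells) and of mouse genes (largely host cells). A gene was tested if its normalized count averaged 10 or more over all 17 libraries, which held for 14533 of 23368 human and 11831 of 23337 mouse genes.

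All tumours were xenografts of VM-CUB-1, an established line of human bladder cancer, in athymic nude mice (Hsd:Athymic Nude-Foxn1nu), animals that lack a thymus and so most T cells. The alpelisib group received alpelisib at 25 mg/kg, and the combination group alpelisib at 25 mg/kg with nintedanib at 40 mg/kg, for 7 days. Other mice received nintedanib alone at 40 mg/kg (n = 5) or vehicle (0.5% methylcellulose with 0.1% Tween80, n = 4). These mice serve here to set the change with alpelisib beside the change without it. Their libraries also enter the filter on level and the shared estimate of spread behind the limma p-values. The titles call 3 of the nintedanib libraries responders and 2 non-responders, while the series text gives 2 and 3. They were fitted as 2 groups by title, and the change without alpelisib weights the 5 libraries equally. The series text calls the xenografts resistant to nintedanib. A single cell line was used, and nothing in the labels gives 1 mouse per tumour, so a p-value here refers to the spread among these libraries, which may be technical.

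Nintedanib inhibits the receptor tyrosine kinases for vascular endothelial growth factor (VEGF), platelet-derived growth factor (PDGF) and fibroblast growth factor (FGF). Endothelial cells at the front of growing vessels, called tip cells, depend on VEGF receptor signalling and are marked by genes such as Apln, Dll4, Esm1 and Angpt2. PI3K acts downstream of such receptors in both endothelial and tumour cells, and alpelisib (BYL719) blocks its alpha isoform.

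Recovered reads ranged from 14662666 to 25349248 per library in the human table and from 2271764 to 7438823 in the mouse table. Alpelisib 1, the first library of the alpelisib group, stood apart in the mouse table: Krt10, a keratin of the outer skin, was at 6621 normalized counts against 8.09 to 13.1 in the other 3 alpelisib libraries. Relative to the alpelisib mean, its median skeletal muscle marker was 3.01 higher and its median endothelial marker 0.67 lower on the log2 scale. Combination 2 had a median skeletal muscle marker 4.69 and a median adipocyte marker 2.74 above the alpelisib mean. The 2 genes Rn45s and Lars2, which collect ribosomal RNA, took 2.93% to 44.1% of mouse reads in alpelisib and 13.7% to 60.1% in combination libraries (15.4% ± 19.2 against 32.4% ± 22.8, SD, n = 4 each, exact two-sided permutation p = 0.2). Reads were mapped to each genome separately, so reads of conserved genes can be counted in both tables, and the share of a list with more reads under the same name in the other species is given for most lists. Members with no gene of that name in the other species count in these shares as not having more reads. In bulk tumours, fewer cells of a type and less RNA per cell cannot be told apart.

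The share of all reads that were mouse reads was 17% ± 4.71 with alpelisib and 22.5% ± 9.41 with the combination (SD, n = 4 each). The alpelisib libraries ran from 13.4% to 23.8% and the combination libraries from 14% to 33.4%, so the groups overlapped (exact two-sided permutation p = 0.314, where 4 against 4 can reach 0.0286). Without Rn45s and Lars2 the shares were 14.2% ± 1.03 and 15.1% ± 2.6 (exact permutation p = 0.486).

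Few single genes separated the groups beyond the spread of the libraries. Among mouse genes, 1 of 11831 genes (0.00845%) passed an adjusted p of 0.05 by limma with Benjamini-Hochberg adjustment, and it fell. This was D930048N14Rik, an unnamed gene model that falls outside the naming rule and is given because it was the only call. It stood at 28, 29.7, 28.3 and 27.5 normalized counts in the alpelisib libraries and at 4.65, 5.03, 2.46 and 4.99 in the combination libraries, a log2 change of -2.51 ± 0.38 (SE, adjusted p = 0.041). Only 126 recovered reads over the 8 libraries lie behind it, and edgeR gave it an adjusted p of 0.0502. DESeq2 did not call it, but gave an adjusted p to only 9713 of the 11831 mouse genes. Whether this gene was among those 9713 is not reported here. It was not called by limma-voom, nor by limma on only the 8 compared libraries (smallest adjusted p 0.268). Without each of the 7 libraries other than Alpelisib 1 it also missed the threshold. Among human genes, 0 of 14533 genes (0%) passed by limma, with a smallest adjusted p of 0.943. There, 648 genes (4.46%) had an unadjusted p under 0.05, 188 of them higher and 460 lower, and edgeR, limma-voom and DESeq2 also called 0. The mouse table had 731 genes with an unadjusted p under 0.05, 299 higher and 432 lower.

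Which mouse genes pass depended on Alpelisib 1 and on the tool. Without Alpelisib 1, limma called 13 mouse genes (0.11%), all lower with the combination: Kcne3, Apln, D930048N14Rik, Esm1, Spry4, Mest, Apold1, Trp53i11, Exoc3l, Cdk1, Dll4, Notch4 and Esam. Of these, 8 belong to the endothelial or tip cell lists described next. DESeq2 on the recovered reads of all libraries called 26 of the 9713 genes to which it gave an adjusted p (0.268%), 22 lower and 4 higher, and 8 of the 26 belong to the same lists. The calls shared 10 genes, 76.9% of those made without Alpelisib 1 and 38.5% of those by DESeq2. The 4 higher by DESeq2 were Itfg3, Mt1, Ndufa4l2 and Zfp937. EdgeR and limma-voom called 0 mouse genes, with 799 and 706 at an unadjusted p under 0.05. Members named below are given as values unless they passed one of these tests.

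Host vessel genes were lower with the combination. Of 33 endothelial markers tested, 32 had a negative change and 1, Tek, the receptor for angiopoietins, a positive one (0.10). Their median change was -0.85, beside 0.01 over all tested mouse genes. In 6 of the 33 all 4 combination libraries lay below all 4 alpelisib libraries, as did 253 of all tested mouse genes (2.14%). None passed by limma with all libraries. The summed level of the markers ran from 4686 to 9175 normalized counts with alpelisib and from 3811 to 5232 with the combination, and 5 of the 33 had more reads under the same name in the human table.

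Pecam1, an adhesion molecule of endothelial junctions, measured 504, 703, 742 and 763 in the alpelisib libraries and 351, 504, 357 and 259 in the combination libraries. The highest combination library lay just under the lowest alpelisib library, Alpelisib 1 (log2 change -0.90 ± 0.27 SE, adjusted p = 0.455). Cdh5, the cadherin that joins endothelial cells, measured 335, 512, 416 and 489 against 238, 233, 255 and 128, and its groups did not overlap (-1.06 ± 0.35, adjusted p = 0.591). Nos3, the endothelial nitric oxide synthase, had the lowest change of the list. It measured 59.1, 75.2, 86.1 and 70.4 against 26.9, 36.2, 33.2 and 6.23 (-1.70 ± 0.41, adjusted p = 0.338 by limma), and it fell by DESeq2 (-1.49, adjusted p = 0.0281).

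Genes of tip cells and growing vessels included the mouse genes with the smallest p among named genes with a negative change, Apln and Trp53i11. Of 28 tested, 24 had a negative and 4 a positive change, with a median of -0.76, and 10 of the 28 had more reads under the same name in the human table. In 6 the combination libraries lay below all alpelisib libraries, beside 2.14% of all tested mouse genes, and in 1, Pgf, above, beside 1.62%. Apln, the ligand apelin made by tip cells, measured 112, 615, 487 and 439 with alpelisib and 120, 52.3, 86.1 and 72.3 with the combination (413 ± 214 against 82.6 ± 28.4, SD, n = 4 each). The low Alpelisib 1 lay within the range of the combination libraries and the other 3 lay far above it. The log2 change was -2.13 ± 0.42 with an adjusted p of 0.311 by limma, and -2.67 ± 0.31 with an adjusted p of 0.00146 without Alpelisib 1. DESeq2 with all libraries gave -2.32 (adjusted p = 8.34e-05).

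**Figure D1:**
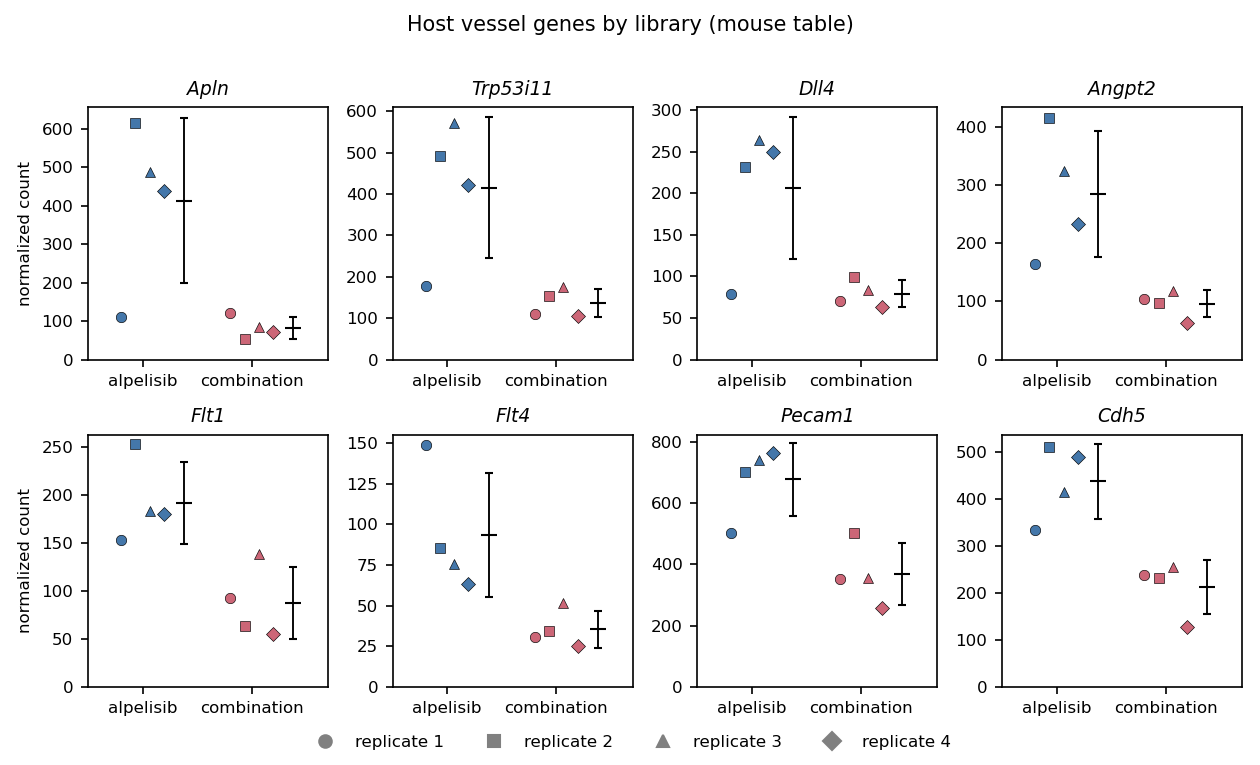
Normalized counts (vertical axis, from 0) of 8 host vessel genes in the 4 alpelisib and the 4 combination libraries, with 1 symbol per replicate number and the mean ± SD beside each group. Alpelisib 1 (circle) lies beside the combination libraries for Apln and Dll4, at 112 and 79.4, while for Flt4 it is the highest library, at 149.

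Trp53i11, a member of the tip cell list with no settled function, measured 179, 492, 571 and 421 with alpelisib and 110, 154, 175 and 106 with the combination. Its groups did not overlap (-1.51 ± 0.30, adjusted p = 0.311 by limma), and it fell by DESeq2 (-1.61, adjusted p = 0.000457). Dll4, the Notch ligand of tip cells, measured 79.4, 232, 264 and 249 against 70.6, 99.6, 83.6 and 63.6, with overlap only through Alpelisib 1. Its change was -1.24 ± 0.32 (adjusted p = 0.394) with all libraries and -1.65 ± 0.23 (limma adjusted p = 0.00353) without that library. Kcne3, a potassium channel subunit, had the lowest change of the list, -2.32 ± 0.56 (adjusted p = 0.338), with 23.3, 228, 269 and 122 against 28.8, 39.2, 13.5 and 16.2. Esm1, a secreted proteoglycan of tip cells, measured 17.1, 278, 401 and 310 against 81.8, 79.5, 35.7 and 47.4. Alpelisib 1 was thus below every combination library for Esm1, and the change went from -1.44 ± 0.68 (adjusted p = 0.807) to -2.48 ± 0.35 (limma adjusted p = 0.00353) when it was left out. Kcne3, Dll4 and Esm1 were chosen for description after their values were seen.

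Vessel-stabilising and destabilising genes did not share 1 direction. Angpt2, the angiopoietin that loosens vessels, measured 165, 416, 324 and 234 with alpelisib and 105, 96.6, 118 and 63.6 with the combination. All 4 combination libraries lay below the alpelisib libraries (-1.51 ± 0.34, adjusted p = 0.311 by limma), and it fell by DESeq2 (-1.57, adjusted p = 0.0102). The 6 angiopoietin and Tie genes tested had a median of 0.21, with 4 positive, which turned to -0.09 with 3 positive without Alpelisib 1. Without Combination 3 or Combination 4 the median was 0.06, and without Alpelisib 3 or Combination 2 it was 0.42 or 0.32. Of 18 pericyte and smooth muscle markers 12 had a negative change (median -0.11, but -0.26 without Alpelisib 1, -0.23 without Combination 1 and -0.01 without Combination 3). In 5 of the 18 the human namesake had more reads. In the same list Ndufa4l2, a mitochondrial protein that is also a hypoxia-induced gene, was higher. It measured 146, 71.7, 94.3 and 97.1 against 303, 172, 434 and 580 (1.76 ± 0.42, adjusted p = 0.338 by limma), and rose by DESeq2 (1.87, adjusted p = 0.0102). The human namesake of Ndufa4l2 had 51335 reads against its 1691, and what carry-over contributes was not tested.

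The receptors that nintedanib inhibits differed among themselves. Flt4, VEGF receptor 3, measured 149, 85.7, 75.5 and 63.1 with alpelisib and 30.7, 34.2, 51.7 and 24.9 with the combination, with no overlap (-1.35 ± 0.36, adjusted p = 0.449). Flt1, VEGF receptor 1, measured 153, 253, 183 and 180 against 92.9, 63.4, 139 and 54.8, also with no overlap (-1.19 ± 0.37, adjusted p = 0.501). Kdr, VEGF receptor 2, overlapped, with 195, 212, 130 and 226 against 167, 112, 117 and 56.1 (-0.82 ± 0.42, adjusted p = 0.833). The PDGF receptors of stromal cells had changes of 0.54 ± 0.38 (Pdgfra) and -0.01 ± 0.30 (Pdgfrb), and Fgfr1 of 0.21 ± 0.25. Pgf, a VEGF receptor 1 ligand, was higher in every combination library, with 106, 61.2, 86.1 and 58.3 against 147, 142, 112 and 294 (1.09 ± 0.50, adjusted p = 0.794).

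Genes that receptor kinase signalling induces and that feed back on it were mostly lower in the mouse table. Of 25 tested, 19 had a negative change, with a median of -0.24 (16 and -0.13 without Alpelisib 1), and 20 of the 25 had more reads under the same name in the human table. Spry4, a Sprouty inhibitor of receptor signalling, measured 15.6, 72.6, 56.6 and 69.6 with alpelisib and 28.8, 14.1, 11.1 and 8.73 with the combination (-1.64 ± 0.44, adjusted p = 0.453 by limma). Without Alpelisib 1, the lowest alpelisib library, Spry4 fell by 2.14 on the log2 scale (limma adjusted p = 0.0229), and it also fell by DESeq2 (adjusted p = 0.03). Spred3, of a related inhibitor family, measured 34.2, 42.8, 49.5 and 34 against 21.4, 22.1, 13.5 and 18.7, with no overlap (-1.05 ± 0.26, adjusted p = 0.394).

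Without Alpelisib 1, all 33 endothelial markers had a negative change, with a median of -1.11, and in 24 of them the combination libraries lay below the other 3 alpelisib libraries, as did 528 of all tested mouse genes (4.46%). Of the 28 tip cell genes, 18 did so, with a median of -0.90 and 7 calls by limma. Over the 8 fits that each leave out 1 library, the median ran from -1.11 to -0.77 for the endothelial list and from -0.90 to -0.62 for the tip cell list.

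**Figure D2:**
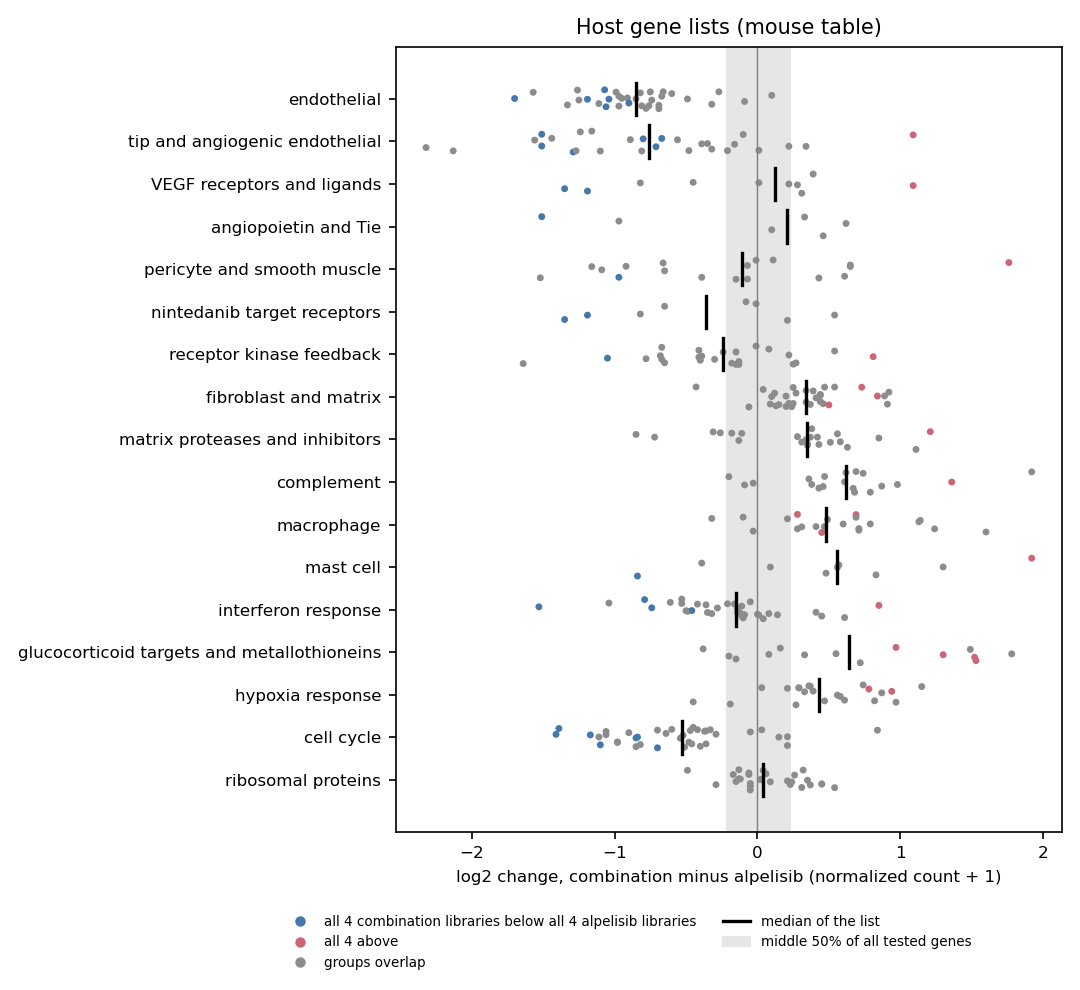
Log2 change of each tested member of 17 mouse gene lists (horizontal axis, combination minus alpelisib, of normalized count + 1), 1 point per gene, with the list median as a black bar and the middle 50% of all tested genes, from -0.21 to 0.23, shaded. The endothelial, tip cell and cell cycle medians lie left of the shaded range (-0.85, -0.76 and -0.53), as do those of nintedanib target receptors (-0.36) and receptor kinase feedback (-0.24). To its right lie the glucocorticoid (0.64), complement (0.62), mast cell (0.56), macrophage (0.48), hypoxia (0.43), matrix protease (0.35) and fibroblast (0.34) medians. Some of these medians fell between -0.21 and 0.23 without Alpelisib 1. These were target receptors (-0.03), receptor kinase feedback (-0.13), matrix protease (0.17) and fibroblast (0.04).

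The change in vessel genes with nintedanib alone was set beside the change on top of alpelisib. For nintedanib alone against vehicle, the endothelial median was -0.79 with all 33 members negative, and the tip cell median -0.84 with 26 of 28 negative. The tumours of that comparison are not shared with the combination comparison. Vehicle 3 stood apart there, with 72.9% of its mouse reads in Rn45s and Lars2 against 2.05% to 13.1% in the other vehicle libraries. Leaving out each vehicle or nintedanib library in turn, an alternative added after the data were seen, gave medians from -0.91 to -0.73 (endothelial) and from -0.98 to -0.71 (tip cell). Apln had a change of -2.05 ± 0.40 without alpelisib, which passed by limma (adjusted p = 0.0466), beside -2.13 ± 0.42 with it. For Dll4 the change without alpelisib was -1.91 ± 0.30 (adjusted p = 0.0113) and for Flt4 -2.09 ± 0.34 (adjusted p = 0.0113); 18 mouse genes (0.152%) passed in that comparison. With 1 vehicle or nintedanib library left out, 4 (without Vehicle 1) to 26 (without Nintedanib non-responder 1) mouse genes passed. Dll4 and Flt4 missed the threshold only without Vehicle 1 (limma adjusted p = 0.0508 each), while Apln passed only without Nintedanib non-responder 1 (adjusted p from 0.0323 to 0.152). The difference between the changes with and without alpelisib was -0.07 ± 0.58 for Apln, 0.67 ± 0.44 for Dll4 and 0.74 ± 0.49 for Flt4, with limma adjusted p-values of 0.98, 0.84 and 0.84. A p above the threshold does not show that the changes were equal. No gene passed the test of that difference in either table by limma (0% of 14533 human and 0% of 11831 mouse genes). There, 995 human and 571 mouse genes had an unadjusted p under 0.05 (457 and 306 without Combination 3, 2225 and 1123 without Combination 2), and edgeR, limma-voom and DESeq2 also called 0.

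**Figure D3:**
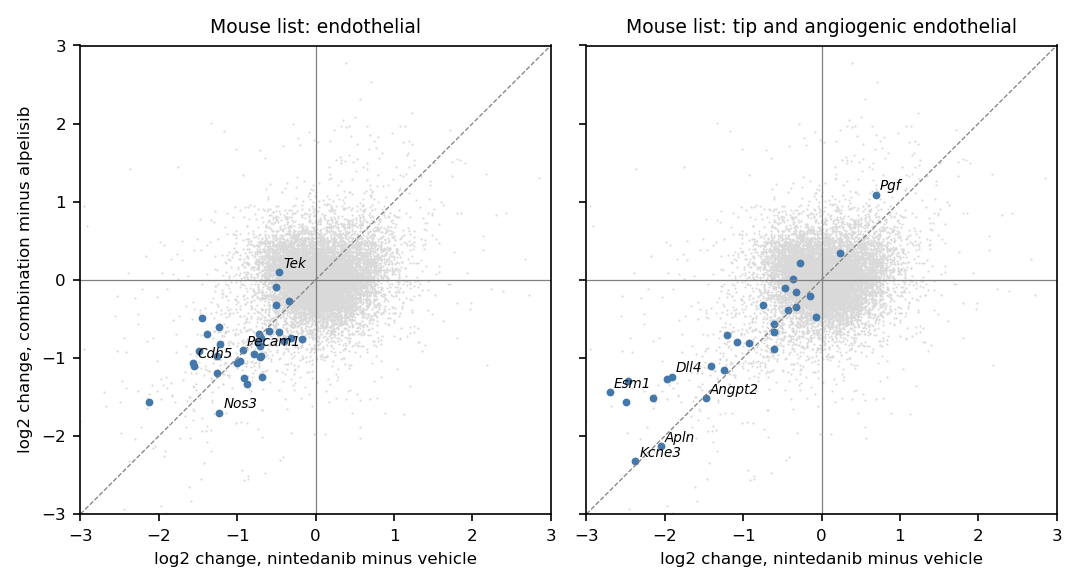
Log2 change of mouse genes for combination minus alpelisib (vertical axis) against nintedanib minus vehicle (horizontal axis), with endothelial (left) or tip cell (right) members in blue, all tested genes in grey and the line of equal change dashed. Members lie mostly in the lower left, where both changes are negative, with Kcne3 lowest at -2.32 on the vertical and -2.38 on the horizontal axis; Pgf is in the upper right.

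Macrophage and complement genes were higher with the combination in the mouse table. Of 22 macrophage markers 19 had a positive change, with a median of 0.48, and in 3, Emr1 and Cd68 among them, all combination libraries lay above all alpelisib libraries, as did 192 of all tested mouse genes (1.62%). None passed by limma. Cd68, a lysosomal protein of macrophages, measured 532, 427, 518 and 539 with alpelisib and 689, 810, 915 and 853 with the combination (0.69 ± 0.24, adjusted p = 0.656). Emr1, which encodes the macrophage antigen F4/80, measured 423, 470, 426 and 320 against 635, 533, 531 and 532 (0.45 ± 0.19, adjusted p = 0.769). With nintedanib alone Emr1 had a change of -0.41 ± 0.18 (limma adjusted p = 0.569), while 16 of the 22 markers were positive, with a median of 0.35. The difference for Emr1 was 0.86 ± 0.27 (limma adjusted p = 0.84). Aif1 had the lowest change of the list on top of alpelisib, -0.32. Mrc1, the mannose receptor, measured 129, 268, 441 and 294 against 584, 391, 670 and 689, with overlap (1.14 ± 0.46, adjusted p = 0.76). The summed level of the list was 14908 to 20363 against 19871 to 25622, and 3 of the 22 had more reads under the same name in the human table.

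For complement, 16 of 19 genes had a positive change, with a median of 0.62, and 6 of the 19 had more reads under the human name. C5ar1, the receptor for the fragment C5a, was also among the 5 mouse genes with a positive change and the smallest p, with Gstm1, Ndufa4l2, Itfg3 and Zdhhc14. C5ar1 measured 35.8, 73.4, 87.3 and 121 with alpelisib and 189, 162, 241 and 168 with the combination, with no overlap (1.36 ± 0.33, adjusted p = 0.338). C1qc, a chain of the complement starter C1q that macrophages make, measured 1832, 2319, 2583 and 2365 against 2219, 4175, 4527 and 4153. Combination 1 lay among the alpelisib libraries there, and the other 3 lay well above them (0.69 ± 0.34, adjusted p = 0.828). In the fits that leave out 1 library the median ran from 0.42 to 0.58 for macrophage and from 0.47 to 0.85 for complement genes.

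Fibroblast and matrix genes leaned higher, but this rested on Alpelisib 1. With all libraries 30 of 32 had a positive change and the median was 0.34. Without Alpelisib 1 these were 17 of 32 and 0.04, and without Combination 1 they were 26 of 32 and 0.21. The human namesake had more reads for 4 of the 32. Dcn, the matrix proteoglycan decorin, was at 202 in Alpelisib 1 and at 1074 to 1180 in the other alpelisib libraries, beside 956 to 1834 with the combination. Col1a1, a chain of type I collagen, measured 9792, 10582, 13038 and 18096 against 30294, 14496, 25565 and 25480, where Combination 2 lay within the alpelisib range (0.89 ± 0.46, adjusted p = 0.833). Crabp1, a retinoic acid binding protein of some fibroblasts, did not overlap, with 1004, 684, 692 and 736 against 1118, 1129, 1262 and 1658 (0.73 ± 0.30, adjusted p = 0.761).

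Glucocorticoid-induced genes and metallothioneins were higher in most members. Of 14 tested, 11 had a positive change, with a median of 0.64 (0.44 without Alpelisib 1). Sgk1 had the lowest change of the list, -0.38. Per1, Klf9, Mt1 and Pdk4 lay above all alpelisib libraries in all 4 combination libraries, as did 1.62% of all tested mouse genes. Mt1, a metal-binding metallothionein, measured 168, 170, 350 and 214 with alpelisib and 399, 444, 680 and 1245 with the combination (1.53 ± 0.42, adjusted p = 0.454 by limma). It rose by DESeq2 (1.62, adjusted p = 0.0484). Per1, a clock gene that glucocorticoids induce, measured 98, 108, 87.3 and 131 against 190, 142, 245 and 277 (0.97 ± 0.25, adjusted p = 0.41). Klf9, a transcription factor with the same induction, measured 20.2, 18.4, 17.7 and 21 against 97.6, 29.2, 87.3 and 42.4 (1.52 ± 0.43, adjusted p = 0.454). Of the 14 genes 12 had a gene of the same name in the human table, and all 12 had more reads there.

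In tumour cells no list of glucocorticoid-induced genes was run, and PER1, KLF9 and FKBP5 were read as single genes. Human PER1 measured 733, 944, 801 and 757 with alpelisib and 1209, 1052, 1707 and 1552 with the combination, with no overlap (0.75 ± 0.27, adjusted p = 0.943). Human KLF9 measured 152, 305, 167 and 194 against 626, 236, 606 and 469, and FKBP5, a glucocorticoid-induced chaperone, 278, 672, 485 and 404 against 1115, 295, 1013 and 999. Combination 2 was the low library in both, within the alpelisib range (KLF9 1.20 ± 0.33 and FKBP5 0.80 ± 0.37, adjusted p = 0.943 each). Because reads of 1 species can map to the other, the tables are not independent readings of these genes.

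Hypoxia genes were read in both tables, and no test between the tables was run. Among mouse genes, 20 of 22 had a positive change, with a median of 0.43. The human list had 13 positive of 25 and a median of 0.05, beside 0.01 and 0 over all tested genes. Without Alpelisib 1 the mouse median was 0.65 and the human median 0.17, and with 1 library left out the human median ran from -0.03 (without Alpelisib 4) to 0.17. Of the 22 mouse genes 21 had a gene of the same name in the human table, and all 21 had more reads there. Mouse Ndrg1, a stress gene induced by low oxygen, measured 747, 605, 467 and 541 with alpelisib and 1501, 841, 978 and 1251 with the combination (0.94 ± 0.31, adjusted p = 0.603). P4ha2, a collagen prolyl hydroxylase, measured 176, 156, 184 and 185 against 343, 261, 294 and 309 (0.78 ± 0.21, adjusted p = 0.449), and neither gene overlapped. They were the 2 of 22 members with all combination libraries above all alpelisib libraries, beside 1.62% of all tested mouse genes. Vegfa had the lowest change of the mouse list, -0.45. Human CA9, the hypoxia-induced carbonic anhydrase, measured 1664, 1303, 1423 and 1204 against 1856, 1873, 1801 and 2227, with no overlap (0.48 ± 0.31, adjusted p = 0.943). It was the only 1 of the 25 human members to lie above in this way, beside 0.86% of all tested human genes. The lowest change of the human list was that of VEGFA, -0.43.

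Interferon-stimulated genes leaned lower in mouse reads. Of 34 tested, 26 had a negative change, with a median of -0.15 (-0.34 without Alpelisib 4, -0.29 without Combination 4 and -0.23 without Combination 3), and in 4 (Cxcl10, Stat2, Isg15 and Irf9) all combination libraries lay below all alpelisib libraries, beside 2.14% of all tested mouse genes. In 1, Ifitm1, they lay above (0.85 ± 0.43, adjusted p = 0.825), beside 1.62%. Cxcl10, a chemokine that interferon induces, measured 195, 126, 123 and 188 with alpelisib and 64.1, 49.3, 27.1 and 88.5 with the combination (-1.53 ± 0.56, adjusted p = 0.692). Stat2, a transcription factor of the interferon response, measured 515, 506, 381 and 448 against 196, 298, 263 and 318 (-0.79 ± 0.27, adjusted p = 0.656). Isg15, a ubiquitin-like protein, measured 437, 488, 586 and 436 against 241, 346, 244 and 348 (-0.74 ± 0.34, adjusted p = 0.8). Of the 34 genes 28 had more reads under the same name in the human table, where the interferon list had 20 positive of 31 and a median of 0.13 (-0.04 without Combination 2, 0.05 without Alpelisib 2, 0.08 without Combination 3 and 0.26 without Combination 1). Nintedanib alone gave the mouse list a median of 0.26 with 26 positive (from 0.14 without Vehicle 1 to 0.39 without Vehicle 4), and no member passed the test of the difference.

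**Figure D4:**
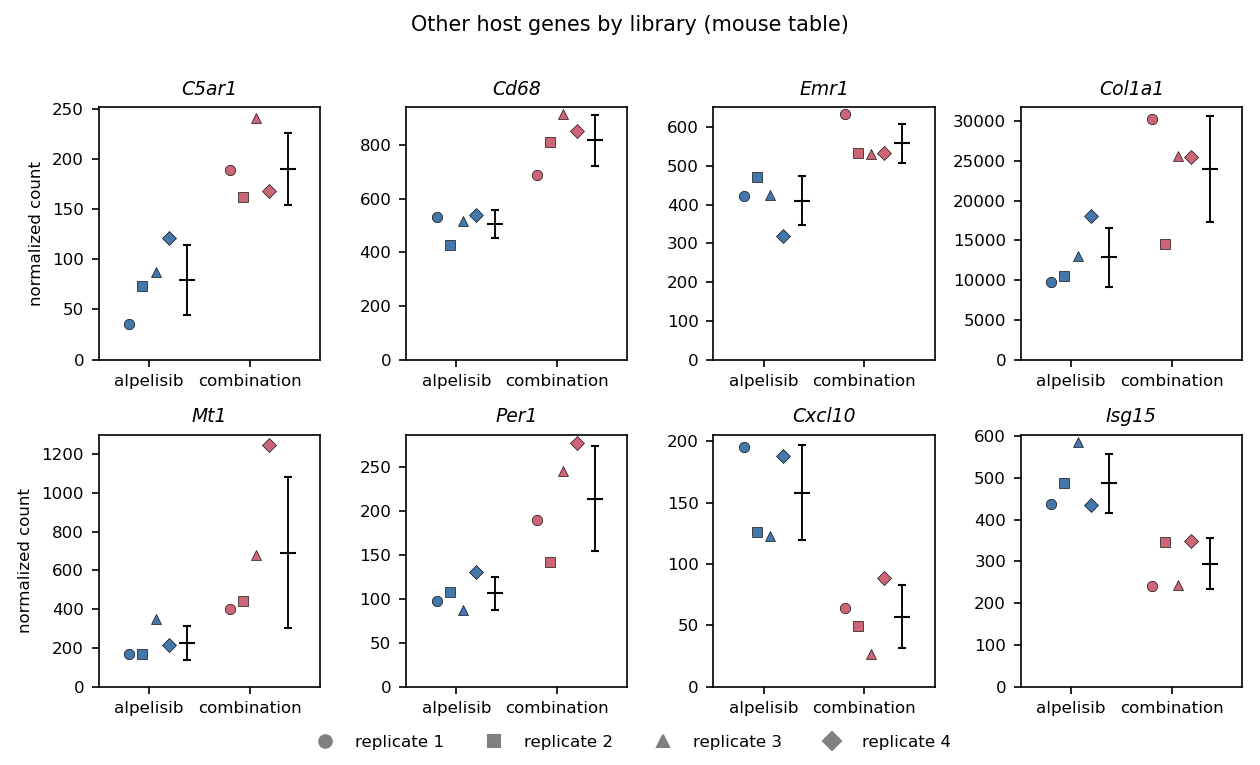
Normalized counts (vertical axis, from 0) of 8 further mouse genes in the 4 alpelisib and 4 combination libraries, with 1 symbol per replicate number and the mean ± SD beside each group. Combination libraries lie above all alpelisib libraries for C5ar1, Cd68, Emr1, Mt1 and Per1 and below all of them for Cxcl10 and Isg15, while for Col1a1 Combination 2, at 14496, lies within the alpelisib range.

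Proliferation genes were lower in both tables. Among mouse genes, 33 of 38 cell cycle genes had a negative change, with a median of -0.53. In 7 all combination libraries lay below all alpelisib libraries, beside 2.14% of all tested mouse genes. All 38 had more reads under the same name in the human table, so host division and reads from dividing tumour cells cannot be told apart there. Mouse Cdk1, the kinase that drives entry into mitosis, measured 73.1, 145, 138 and 154 against 31.6, 63.4, 43.1 and 49.9 (-1.41 ± 0.31, adjusted p = 0.311 by limma). It fell by DESeq2 (-1.45, adjusted p = 0.0113) and, without Alpelisib 1, by limma (-1.65, adjusted p = 0.0424). Mouse Ccnb1, its cyclin partner, measured 34.2, 31.5, 25.9 and 38 against 9.29, 13.1, 13.5 and 21.2, with no overlap and only 178 reads behind it (-1.17 ± 0.34, adjusted p = 0.454).

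In tumour cells 35 of 40 cell cycle genes had a negative change, with a median of -0.31 beside 0 over all tested human genes, and 0 of the 40 separated the groups with all libraries, against 225 of all tested human genes (1.55%) lying below. Human CENPA, a histone of centromeres, measured 206, 323, 391 and 526 with alpelisib and 211, 214, 130 and 213 with the combination (-0.86 ± 0.30, adjusted p = 0.943). CCNB1 measured 1318, 2297, 2659 and 2600 against 1510, 1352, 1029 and 1490 (-0.68 ± 0.22, adjusted p = 0.943). In both, Alpelisib 1 was the low alpelisib library. MKI67, the antigen Ki-67, overlapped throughout, with 1238, 1145, 1538 and 1219 against 1686, 811, 1380 and 1527 (0.03 ± 0.35, adjusted p = 0.99). Without Alpelisib 4 the cell cycle median was -0.19. Without Alpelisib 1 it was -0.44, and in 16 of 40 genes the combination libraries lay below the other 3 alpelisib libraries, as did 645 of all tested human genes (4.44%). That fit also called 0% of human genes. GINS1, a subunit of the replication helicase, and CENPL, a kinetochore protein, were among the 5 human genes with the smallest p and a negative change (-0.76 ± 0.20 and -0.72 ± 0.18, adjusted p = 0.943 each).

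Target genes of ERK, the kinase at the end of the receptor and RAS pathway, leaned lower in tumour cells. Of 31 tested, 24 had a negative change, with a median of -0.28 (-0.42 without Combination 2). In 3, DUSP4, ETV5 and FOS, all combination libraries lay below all alpelisib libraries, as did 225 of all tested human genes (1.55%). FOS, an immediate early transcription factor, measured 1284, 1160, 858 and 1262 with alpelisib and 519, 835, 532 and 515 with the combination (1141 ± 196 against 600 ± 157, SD, n = 4 each; -0.94 ± 0.34, adjusted p = 0.943). DUSP4, a phosphatase that switches ERK off, measured 1195, 1235, 957 and 1167 against 847, 891, 687 and 861 (-0.47 ± 0.23, adjusted p = 0.943). EGR3, another early transcription factor, measured 499, 264, 241 and 379 against 214, 267, 153 and 137, with overlap (-0.83 ± 0.32, adjusted p = 0.943). Nintedanib alone gave the list a median of 0.14, which turned to -0.01 without Vehicle 2 and to -0.06 without Nintedanib responder 1. Of the 31 genes 6 had more reads under the same name in the mouse table.

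Growth factors and FGF receptors of the tumour cells did not share 1 direction. Of 13 FGF and EGF family ligands tested 10 had a negative change, with a median of -0.23 that went to -0.05 without Combination 4 and to -0.14 without Alpelisib 2. HBEGF, an EGF receptor ligand, measured 1355, 566, 624 and 805 against 404, 687, 270 and 302 (-1.02 ± 0.55, adjusted p = 0.943). FGFBP1, which releases FGF from matrix, measured 4952, 3250, 6271 and 6761 against 3275, 6067, 2375 and 1937 (-0.72 ± 0.37, adjusted p = 0.943), and its groups overlapped. FGFR3, an FGF receptor of urothelial cells, measured 7735, 5971, 5235 and 6872 against 3872, 6949, 5309 and 4085 (-0.38 ± 0.25, adjusted p = 0.943). FGFR1 and FGFR2 had changes of -0.10 ± 0.23 and 0.20 ± 0.27.

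Of 23 PI3K pathway genes tested, 17 had a positive change, with a median of 0.14 that went to 0.06 without Alpelisib 3 and to 0.05 without Combination 3. PIK3CA, which encodes the kinase alpelisib inhibits, measured 305, 357, 517 and 285 with alpelisib and 559, 297, 600 and 630 with the combination, where Combination 2 was again the low library (0.49 ± 0.32, adjusted p = 0.943). PIK3CD, the delta isoform, measured 458, 189, 156 and 231 against 542, 390, 341 and 269 (0.66 ± 0.30, adjusted p = 0.943), and 2106 reads of its mouse namesake stand beside its 2684. PIK3CB had a change of 0.30 ± 0.26. FOXO targets, which rise when PI3K is blocked, had 15 positive of 22 and a median of 0.16. That median was 0.05 without Alpelisib 3, 0.07 without Alpelisib 1, Combination 1 or Combination 3, and 0.09 without Combination 2.

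Epithelial identity genes of the tumour cells had medians nearer to 0 than the host vessel lists. Basal urothelial genes had 17 positive changes of 21, with a median of 0.31, and none had more reads under the same name in the mouse table. Without Alpelisib 2 the median was 0.13, without Alpelisib 3 0.17 and without Combination 1 0.18. KRT17, a basal and stress keratin, measured 224999, 164130, 196686 and 223434 with alpelisib and 234930, 394143, 310876 and 417040 with the combination, with no overlap, as in 125 of all tested human genes lying above (0.86%). Its change was 0.72 ± 0.38 (adjusted p = 0.943). ITGB4, an integrin of the basal layer, overlapped, with 12417, 5145, 5371 and 6776 against 10954, 9854, 13137 and 8614 (0.60 ± 0.38, adjusted p = 0.943). Squamous differentiation genes had 16 positive changes of 35 and a median of -0.07, whose sign turned with the libraries used. It was 0.16 without Alpelisib 1 and 0.09 without Combination 1 or Combination 4, and as low as -0.25 without Combination 2. Nintedanib alone gave the same list a median of 1.07 with 30 positive (from 0.87 without Nintedanib responder 1 to 1.56 without Nintedanib non-responder 1), and 0 of the 35 passed the test of the difference. Ribosomal protein genes had a median of 0.73 without alpelisib, which went to 0.37 without Vehicle 3. Relative to the alpelisib mean, their median in that library was -2.24, against -0.70 to -0.59 in the other vehicle libraries. With alpelisib their median was -0.01. Mesenchymal state genes had 19 positive changes of 22, with a median of 0.26 (0.10 without Combination 1 and 0.14 without Alpelisib 2), and 13 of the 22 had more reads under the mouse name.

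**Figure D5:**
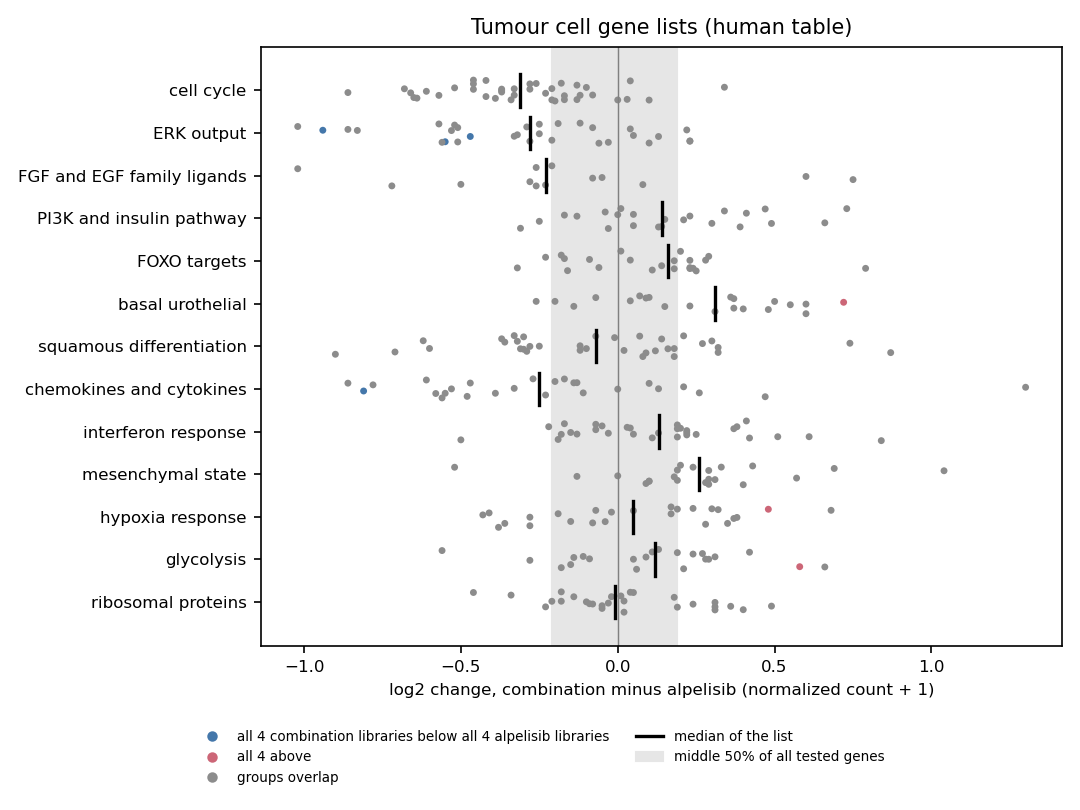
Log2 change of each tested member of 13 human gene lists (horizontal axis, combination minus alpelisib, of normalized count + 1), 1 point per gene, with the list median as a black bar and the middle 50% of all tested genes, from -0.21 to 0.19, shaded. The medians of the cell cycle, ERK output, growth factor and chemokine lists lie left of the shaded range (-0.31, -0.28, -0.23 and -0.25), and those of the basal and mesenchymal lists right of it (0.31 and 0.26).

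Other human genes named by smallest p were CCR7, MAOB and MFSD2A with negative and GYLTL1B, TAGLN and SERPING1 with positive changes. CCR7, a chemokine receptor, measured 116, 165, 129 and 130 with alpelisib and 51, 86.8, 66.5 and 35.3 with the combination, with no overlap (-1.22 ± 0.28, adjusted p = 0.943), and had a change of -1.10 ± 0.27 with nintedanib alone. MAOB, a mitochondrial amine oxidase, measured 481, 738, 851 and 918 against 301, 370, 433 and 268 (-1.10 ± 0.31, adjusted p = 0.943). GYLTL1B, a glycosyltransferase, measured 102, 83.2, 74.3 and 91.5 against 160, 133, 194 and 173 (0.90 ± 0.22, adjusted p = 0.943). TAGLN and SERPING1, with 1.24 ± 0.34 and 0.96 ± 0.27, had 20046 and 18126 reads under the mouse name against 4966 and 3408 human reads. Chemokines and cytokines had 19 negative changes of 26, with a median of -0.25 (-0.41 without Combination 2, -0.16 without Combination 1 and -0.12 without Combination 3). PIGR, the carrier of IgA across epithelia, lay below all alpelisib libraries, at 232, 393, 285 and 318 against 112, 174, 197 and 226 (-0.81 ± 0.46, adjusted p = 0.943). Leaving out Combination 2 raised the number of human genes with an unadjusted p under 0.05 from 648 to 1512, still with 0 passing by limma (smallest adjusted p 0.341), and leaving out Combination 3 lowered it to 253, Alpelisib 4 to 380, Combination 4 to 407 and Alpelisib 2 to 420. For mouse genes the number went from 731 to 1118 without Combination 2, with 0 passing.

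The genes whose change by nintedanib differed with the smallest p between tumours with and without alpelisib included HOPX, TM4SF1, C1s and Adamts1, and none passed. Human HOPX, an atypical homeodomain protein, had a change of -0.47 ± 0.40 with alpelisib and 1.74 ± 0.38 without it (difference -2.21 ± 0.55, adjusted p = 0.662). Human TM4SF1, a membrane protein of the tetraspanin-like L6 family, had -0.96 ± 0.32 and 0.66 ± 0.31 (difference -1.62 ± 0.44, adjusted p = 0.662). Mouse C1s, a complement protease, had -0.09 ± 0.27 with alpelisib and 1.30 ± 0.25 without it, where it passed by limma (adjusted p = 0.0466). It missed the threshold without 7 of the 9 vehicle and nintedanib libraries (highest adjusted p 0.173, without Nintedanib responder 1). Its human namesake had 34539 reads against its 5049. The difference was -1.39 ± 0.37 (adjusted p = 0.84). Mouse Adamts1, a matrix protease, had 0.38 ± 0.37 and -1.55 ± 0.35 (difference 1.93 ± 0.51, adjusted p = 0.84). It stood at 664 in Vehicle 3 and at 175 to 217 in the other vehicle libraries. Without Vehicle 3 its change without alpelisib was -1.10 ± 0.27 and the difference 1.48 ± 0.38.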

How the data were processed

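PolyA RNA of each tumour was sequenced as 75 bp read pairs, per the labels' protocols. The 2 deposited tables hold a normalized signal per gene, read counts that the authors divided by a scaling factor per library; Bowtie, TopHat, DESeq2, hg19 and mm10 are named in the submitters' processing notes, and the read counter and strand setting are not given in the sources used here. Reads were recovered as whole numbers by dividing each column by its smallest step (100% of values within 0.001). Log2(value + 1) was fitted with limma-trend 3.58.1 (R 4.3.3), 1 mean for each of 5 groups over 17 libraries, leaving 12 residual degrees of freedom. Benjamini-Hochberg adjustment ran over all tested genes of a species, with a threshold of 0.05. Changes are log2 of value + 1, which understates low genes; errors are SE, and SD for levels. EdgeR 4.0.16, limma-voom and DESeq2 1.42.0 were run on the recovered reads as alternatives, with other scaling, pseudocounts, filters, a replicate block and libraries left out; leaving out vehicle and nintedanib libraries was added after seeing the data. Only the limma fit of combination against alpelisib was tested on simulated data. Those data had the same spread setting for all genes and no outlying library, unlike the libraries here.

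The compared libraries, the 23 human and 30 mouse gene lists and the tests were chosen with earlier results of these data known. Lists are described by counts and medians, with no test of a list. Named genes were, for each species, up to 8 past the threshold per direction with a mean of at least 50 in either group, filled up to 5 by smallest p where fewer passed, without unnamed gene models, pseudogenes and receptor genes of lymphocytes; up to 4 members per list by smallest p; the drug targets; and the 5 genes with the smallest p of the difference with and without alpelisib. Kcne3, Dll4, Esm1, Notch4, Esam, Mest, MKI67, Col1a1, DUSP4, ETV5 and the other genes called by only 1 setting were named after their values were seen. Libraries of a group were not copies of each other, with a lowest chi-square per gene of 54.4 (human) and 20.6 (mouse) among 12 pairs per species. Some list members are counted but not reported here by name. Plots were drawn with matplotlib.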

Additional observations from a re-analysis of the deposited data

Results flagged for a closer look

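Values are flagged where the highest or lowest of the 4 libraries of a group stood apart from the other 3 by a gap that, as a share of the group's range, exceeded Dixon's 95% critical value, which chance alone gives in about 1 of 20 groups. Values are normalized counts unless stated.

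Alpelisib 1 stood apart in 7 genes. In the mouse table it was high for Krt10, at 6621 against 8.09 to 13.1, and for Crabp1, at 1004 against 684 to 736. It was low for Exoc3l, at 28 against 76.9 to 83.9, for the vessel gene Notch4, at 104 against 273 to 280, and for Dcn, at 202 against 1074 to 1180. In the human table it was high for IFITM2, at 1363 against 737 to 757, and low for TM4SF1, at 1274 against 2416 to 2510. Alpelisib 3 had the high share of mouse reads in Rn45s and Lars2, 44.1% against 2.933% to 7.999%.

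Among combination libraries, Combination 1 was high for mouse Emr1 (635 against 531 to 533), mouse Pdgfrb (989 against 482 to 537) and human FGFR1 (774 against 449 to 497). The same library was low for mouse C1qc (2219 against 4153 to 4527) and mouse Slc13a3 (49.2 against 104 to 113). Combination 2 was high for human FOS (835 against 515 to 532) and low for human FKBP5 (295 against 999 to 1115) and TAGLN (579 against 904 to 931). Combination 3 was low for D930048N14Rik (2.46 against 4.65 to 5.03) and human CENPA (130 against 211 to 214). Combination 4 was low for Cdh5 (128 against 233 to 255) and high for human CA9 (2227 against 1801 to 1873).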

How the results depend on the processing

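The human count of 0 and both counts of 0 for the difference with and without alpelisib kept their value under every alternative run, which for the difference included each vehicle and nintedanib library left out in turn, chosen after seeing the data. The mouse count of 1 became 0 with a minimum mean of 50, with edgeR, with limma-voom, with the replicate block, without Alpelisib 3, Combination 1 and Combination 4 together (the libraries with high ribosomal RNA shares) and with only the 8 compared libraries. It became 26 with DESeq2. Leaving out 1 library at a time gave counts from 0 to 13, with 13 without Alpelisib 1 and 0 without each other library. With no filter the count stayed at 1, but the gene was Sncb, listed at 0 in the alpelisib libraries; the cause was not tested. Erythroid genes gave no value at a minimum mean of 50.

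Same-numbered alpelisib and combination libraries correlated above 0.1 in 1 of 4 human and 0 of 4 mouse pairs. In neither table did any alpelisib library correlate best with its own number. These correlations gave no sign that the numbers pair the samples, but so few pairs cannot exclude it. With the replicate block, 0 human and 0 mouse genes were called.

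Of 100 genes followed across alternatives, 6 changed sign somewhere, with reported changes between -0.10 and 0.21. For mouse Pdgfrb (-0.01) the values were 0.03 with edgeR and with DESeq2, and from -0.25 to 0.11 with 1 library left out. For human MKI67 they ran from -0.09 to 0.26 with 1 library left out, and -0.18 without the 3 libraries above. Mouse C1s gave from -0.23 to 0.03 with 1 library left out and 0.21 without the 3. With 1 library left out, human FGFR2 gave from -0.02 to 0.39 (-0.14 without the 3), human FGFR1 from -0.28 to 0.01 and mouse Fgfr1 from -0.01 to 0.40. Mouse depth, with as few as 2271764 reads in Alpelisib 1, limits genes of low level.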
